A study of Homo sapiens with 9 samples.

Results

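DNA replication and S phase genes were described in HK-2 cells, an immortalized line of human renal proximal tubular epithelial cells. The set holds 48 genes chosen by symbol for known roles in origin licensing, fork machinery, deoxynucleotide supply, chromatin duplication and entry into S phase. They were chosen with earlier results of these data known. All 48 were found by symbol among the 58884 Ensembl gene identifiers of the deposited tables, and all 48 were among the 14454 genes with enough signal to be tested. The 9 RNA-seq libraries formed 3 groups of 3. The first group had lactoferrin, an iron-binding milk glycoprotein, for 6 h and then fine airborne particulate matter (PM2.5) for 18 h. The second had PM2.5 for 24 h, and the third was labelled untreated, while the protocol gives control cells the vehicle. For the combined treatment the series text gives lactoferrin at 40 mg/ml and PM2.5 at 1 mg/ml; both units are as printed there and could not be checked against another source, so the doses are uncertain. The labels of the other PM2.5 group give no dose. In all 3 groups the cells grew in a keratinocyte serum-free medium with bovine pituitary extract and recombinant EGF, and dosing began 24 h after seeding, near 90% confluence. There was no group with lactoferrin alone. The labels do not say whether replicates were separate cultures, so p-values measure only the spread between these libraries.

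Before S phase, the origin recognition complex, CDC6 and CDT1 load the MCM2 to MCM7 ring onto DNA, and CDC45 with the GINS complex then turns that ring into the active replicative helicase. Polymerase alpha-primase starts each strand, the RFC loader places the PCNA clamp, polymerases delta and epsilon extend the strands, and FEN1 with LIG1 joins the lagging-strand pieces. Many of these genes are activated at the G1/S boundary by E2F transcription factors, once cyclin-dependent kinases have inactivated the RB family. Proximal tubule cells of the adult kidney divide rarely and re-enter the cycle after injury, whereas HK-2 is a proliferating line.

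The files gave FPKM, a read or fragment rate scaled to transcript length and library depth, and the step between low values implied 15314463 to 18816261 counted reads or fragments per library. In the libraries the summed FPKM of the 48 genes lay between 1146 and 1352. Of 14 proximal tubule markers, 2 reached 1 FPKM in some library (MME and PAX8), while LRP2, CUBN, SLC22A6 and HNF4A stood at or near 0. Their sum was 72.04 to 83.3 FPKM with lactoferrin plus PM2.5, 82.4 to 89.8 FPKM with PM2.5 and 52.8 to 56.8 FPKM in control, most of it PAX8. Without PAX8 it was 4.27 to 5.49 FPKM with lactoferrin plus PM2.5, 3.602 to 4.27 FPKM with PM2.5 and 2.38 to 2.64 FPKM in control, so both sums were above control in all exposed libraries. Of 6 epithelial markers, 5 reached 1 FPKM in some library (EPCAM, KRT8, KRT18, KRT19 and CDH2), while CDH1 stayed below it in all. That level was also reached by 1 of 7 immune markers (CD14), 0 of 5 endothelial and 3 of 6 fibroblast markers (COL1A1, DCN and LUM). The summed immune markers lay at 0.643 to 1.21 FPKM with lactoferrin plus PM2.5, 0.614 to 0.844 FPKM with PM2.5 and 0.691 to 1.63 FPKM in control, with PTPRC near 0. The summed endothelial markers lay below 0.127 FPKM in every library. The fibroblast sum was 50.7 to 55.03 FPKM with lactoferrin plus PM2.5, 66.2 to 68.0 FPKM with PM2.5 and 47.99 to 54.3 FPKM in control, nearly all of it LUM, with PDGFRA and COL1A2 near 0; the part of the proximal tubule and fibroblast sums in the results was not tested.

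Promoter sequences show how far the set shares the E2F type of element. RefSeq windows of 300 bases on GRCh38.p14, from 250 bases before to 50 bases after the start, were found for 41 of the 48 genes; MCM4, MCM5, GINS4, DSCC1, RPA2, RPA3 and CCNE2 had no entry. Windows were searched on both strands for short words of the E2F type. The word TTCGCGC is typical of them, with alternating bases in its core. A second form replaces part of that core and reads TTGGCGC, as in MCM6 and ORC1. The remaining form carries a run of cytosines and reads TTCCCGC. Bases before the start are shown for 8 genes with a whole word there, in capitals, and for TK1, which has none; each is written 5′ to 3′ on the strand of its gene. MCM6 is at chr2:135876498-135876619 on the minus strand, MCM7 at chr7:100101398-100101457 minus, PCNA at chr20:5126650-5126706 minus, GINS2 at chr16:85688955-85689010 minus and LIG1 at chr19:48170426-48170482 minus. POLA1 is at chrX:24693756-24693829 plus, ORC1 at chr1:52404424-52404470 minus, CDT1 at chr16:88803729-88803788 plus and TK1 at chr17:78187205-78187264 minus.
MCM6: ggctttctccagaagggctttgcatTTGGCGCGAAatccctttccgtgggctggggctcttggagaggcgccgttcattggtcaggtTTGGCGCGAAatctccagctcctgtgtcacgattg
MCM7: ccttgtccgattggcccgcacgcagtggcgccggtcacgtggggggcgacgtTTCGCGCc
PCNA: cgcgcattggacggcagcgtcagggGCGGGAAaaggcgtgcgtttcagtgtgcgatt
GINS2: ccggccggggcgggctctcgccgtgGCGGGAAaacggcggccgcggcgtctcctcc
LIG1: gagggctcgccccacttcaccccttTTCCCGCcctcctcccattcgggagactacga
POLA1: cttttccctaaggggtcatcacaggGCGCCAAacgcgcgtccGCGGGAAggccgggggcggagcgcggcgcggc
ORC1: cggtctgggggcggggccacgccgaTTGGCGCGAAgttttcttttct
CDT1: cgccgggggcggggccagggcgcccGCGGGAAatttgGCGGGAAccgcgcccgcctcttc
TK1: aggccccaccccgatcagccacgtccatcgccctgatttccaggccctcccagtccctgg

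In MCM6 and ORC1 the 10 capitals hold a pair of overlapping words, TTGGCGC and the reverse complement of TTCGCGC. At least 1 of the words was present in 30 of the 41 windows (73.2%), against 18.3% of the 10028 windows of tested genes and 11.2% of all 27305 windows. The cell cycle homology region word TTTGAA, typical of late cell cycle genes, lay in 1 of the 41 windows (RRM1, 2.44%), against 9.29% of tested genes, while 14 of 19 windows of G2 and mitosis genes held it (73.7%). E2F-type words lay in 4 of those 19 windows (21.1%). A match describes the letters of the window and does not show a bound factor.

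With PM2.5, the replication genes split: 3 of 48 rose and 8 fell against control, and 37 did not pass the test. A gene was called at an adjusted p under 0.05 by limma, with Benjamini-Hochberg adjustment over all 14454 genes. By that rule 35.1% of all tested genes were called, 18.7% higher and 16.4% lower, so the 22.9% called among the 48 is a smaller share than the background. GINS3, RFC5 and CCNE1 rose; TK1, CLSPN, RPA3, GINS2, MCM5, MCM7, LIG1 and RRM2 fell. The changes were small: the 48 log2 fold changes ran from -0.83 to 0.48 with a median of -0.01, against a median of 0.00 over all tested genes. Differences of at least 0.5 on the log2 scale occurred in 4 of the 48 (8.33%) and in 27.4% of all tested genes. In FPKM, the PM2.5 libraries all lay above control for 15 genes and all below for 14, which is 29 of 48, against 30.9%, 22.7% and 53.6% of all tested genes. Log2 fold changes were above 0 for 24 of the 48, as for 50.4% of all tested genes. In bulk RNA, a change in the share of cells in S phase and a change in the RNA of a gene per cell cannot be told apart.

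**Figure D1:**
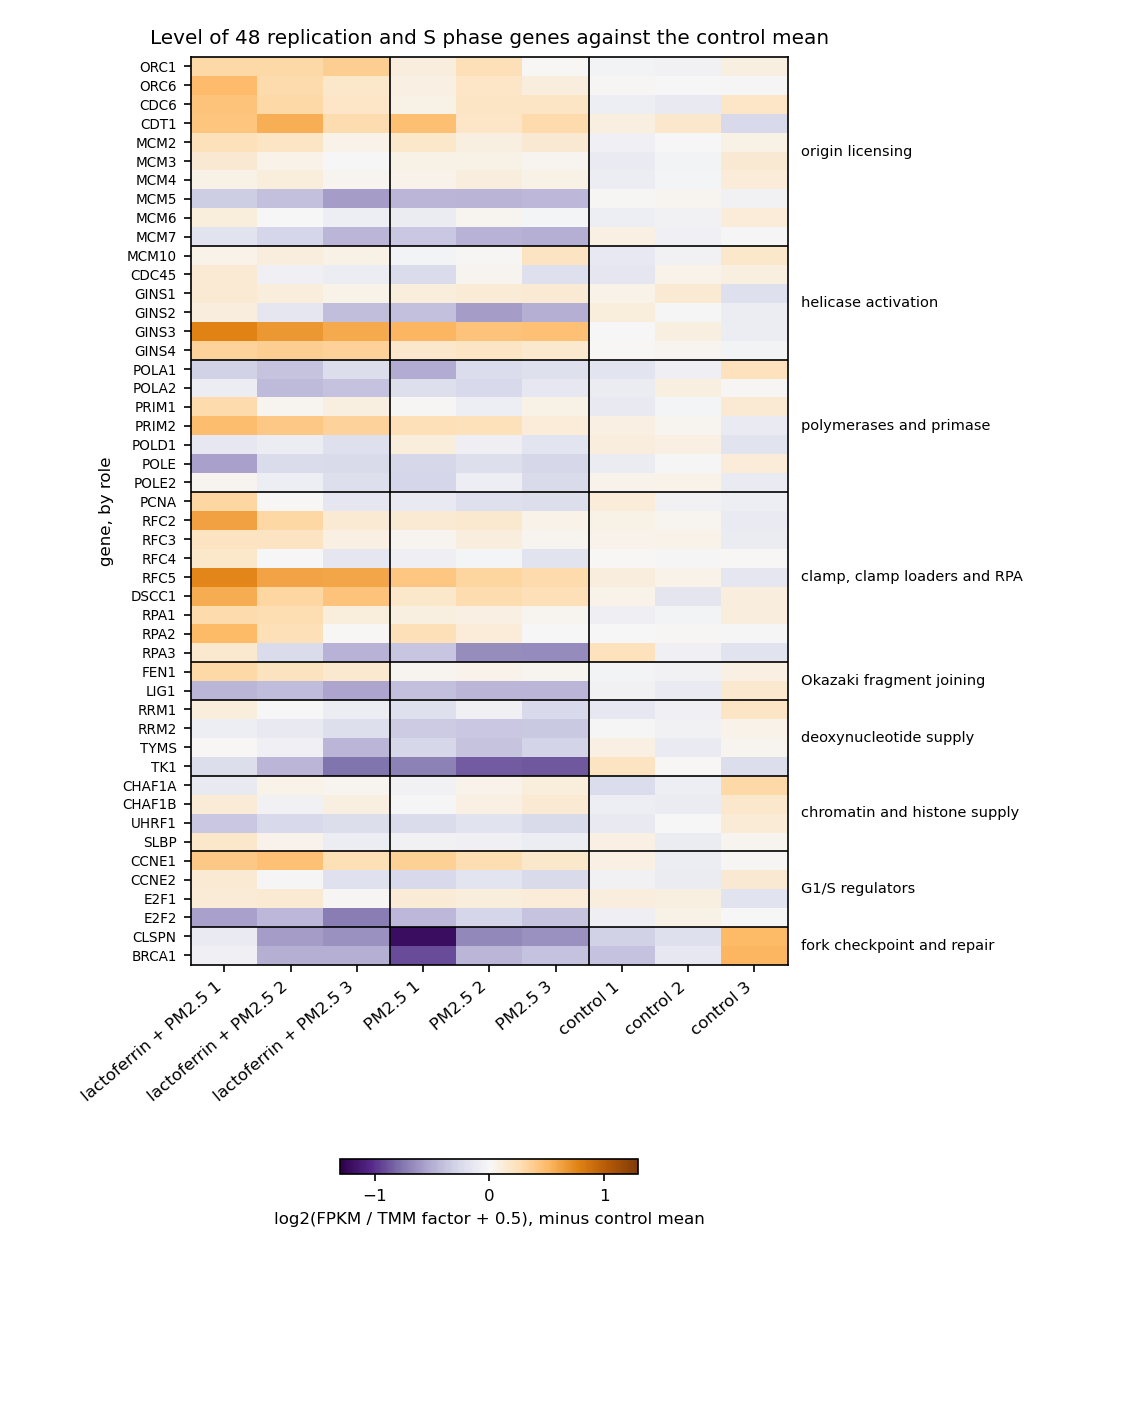
Heat map of the 48 genes (rows, grouped by role) in the 9 libraries (columns, 3 per group), coloured by log2(FPKM / TMM factor + 0.5) minus the mean of the control libraries. TK1, RPA3, GINS2 and CLSPN are lower in the PM2.5 columns, GINS3 and RFC5 are higher in both exposed groups, and CLSPN and BRCA1 are high in control replicate 3.

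Of the 10 origin licensing genes, MCM5 and MCM7 fell with PM2.5 and the other 8 did not pass the test. MCM5, a subunit of the hexameric MCM ring, had 19.9, 20.1 and 20.9 FPKM with PM2.5, against 27.99, 27.9 and 25.2 FPKM in control. All PM2.5 libraries lay below all controls, and the log2 fold change was -0.45 ± 0.08 (SE; adjusted p = 0.00246). MCM7, another ring subunit, had 56.96, 53.8 and 54.4 FPKM with PM2.5, against 77.9, 70.95 and 68.7 FPKM in control, again with no overlap (-0.44 ± 0.09, adjusted p = 0.00562). MCM4, the ring subunit with the highest mean level, had 64.7, 68.5 and 68.7 FPKM with PM2.5 and 59.6, 61.8 and 64.8 FPKM in control, with overlapping groups and a log2 fold change of 0.07 ± 0.08 (adjusted p = 0.529). MCM2, MCM3 and MCM6 had log2 fold changes of 0.14, 0.05 and -0.03. Within each library, the FPKM of MCM5 divided by that of MCM4 was 0.307, 0.293 and 0.304 with PM2.5, against 0.469, 0.452 and 0.389 in control. That ratio does not depend on scaling between libraries, and the exon lengths of the pair are close (7338 and 6973 bases); the pair was chosen after its values were seen. The loading factors ORC1, ORC6, CDC6 and CDT1 had log2 fold changes of 0.12, 0.12, 0.16 and 0.32, with adjusted p from 0.0836 to 0.325.

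Among the 6 helicase activation genes, subunits of the 4-part GINS complex moved in opposite directions. GINS3 had 7.66, 7.33 and 7.64 FPKM with PM2.5, against 5.22, 5.54 and 4.62 FPKM in control, so that every PM2.5 library was higher (0.48 ± 0.08, adjusted p = 0.00217). GINS2 had 13.5, 12.1 and 13.2 FPKM with PM2.5, against 19.6, 17.9 and 16.1 FPKM in control, so that every PM2.5 library was lower (-0.49 ± 0.13, adjusted p = 0.0146). The FPKM of GINS3 divided by that of GINS2 was 0.567, 0.605 and 0.578 with PM2.5, against 0.266, 0.309 and 0.287 in control, a pair also chosen after its values were seen. GINS1 (0.12 ± 0.09) and GINS4 (0.17 ± 0.07) did not pass the test, nor did MCM10 (0.07 ± 0.10), an initiation factor, or CDC45 (-0.14 ± 0.11). Without PM2.5 replicate 2, GINS2 missed the threshold (adjusted p = 0.0543).

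None of the 7 polymerase and primase genes passed the test with PM2.5, and their median log2 fold change was -0.20. POLA1, the catalytic subunit of polymerase alpha, differed most among them, with 9.16, 11.5 and 12.02 FPKM with PM2.5 and 11.96, 12.8 and 14.9 FPKM in control. PM2.5 replicate 3 overlapped the lowest control, and the difference was -0.31 ± 0.12 (adjusted p = 0.0739). POLE, the catalytic subunit of polymerase epsilon, lay below control in every PM2.5 library yet missed the threshold (-0.25 ± 0.10, adjusted p = 0.0932). The primase subunits PRIM1 (0.01 ± 0.10) and PRIM2 (0.20 ± 0.08, adjusted p = 0.085) did not pass the test. POLA2 was the lowest of the 48 genes in level, at 0.377 to 0.748 FPKM and 37 to 71 rebuilt reads.

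In the group of clamp, clamp loaders and RPA, RFC5 rose, RPA3 fell and 7 of 9 did not pass the test. RFC5, a small subunit of the clamp loader, had 18.8, 18.04 and 18.02 FPKM with PM2.5, against 15.1, 14.6 and 11.9 FPKM in control, with every PM2.5 library higher (0.35 ± 0.09, adjusted p = 0.0143). RPA3, the smallest subunit of the single-strand binding protein RPA, had 10.4, 8.71 and 8.84 FPKM with PM2.5, against 16.3, 13.2 and 11.5 FPKM in control, with every PM2.5 library lower (-0.56 ± 0.17, adjusted p = 0.0288). The other RPA subunits, RPA1 (0.06 ± 0.08) and RPA2 (0.12 ± 0.12), did not pass the test. PCNA, the sliding clamp, was the highest of the 48 in level, with 164, 158 and 160.4 FPKM with PM2.5 and 196, 174 and 160.5 FPKM in control. Its groups overlapped at the lowest control, and it did not pass the test (-0.18 ± 0.12, adjusted p = 0.296). RFC5 was lost as a call without PM2.5 replicate 1 (adjusted p = 0.0569). RPA3 was lost without control replicate 1 (0.0922), control replicate 2 (0.0586), PM2.5 replicate 2 (0.0859) or PM2.5 replicate 3 (0.0885), each given as the adjusted p.

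**Figure D2:**
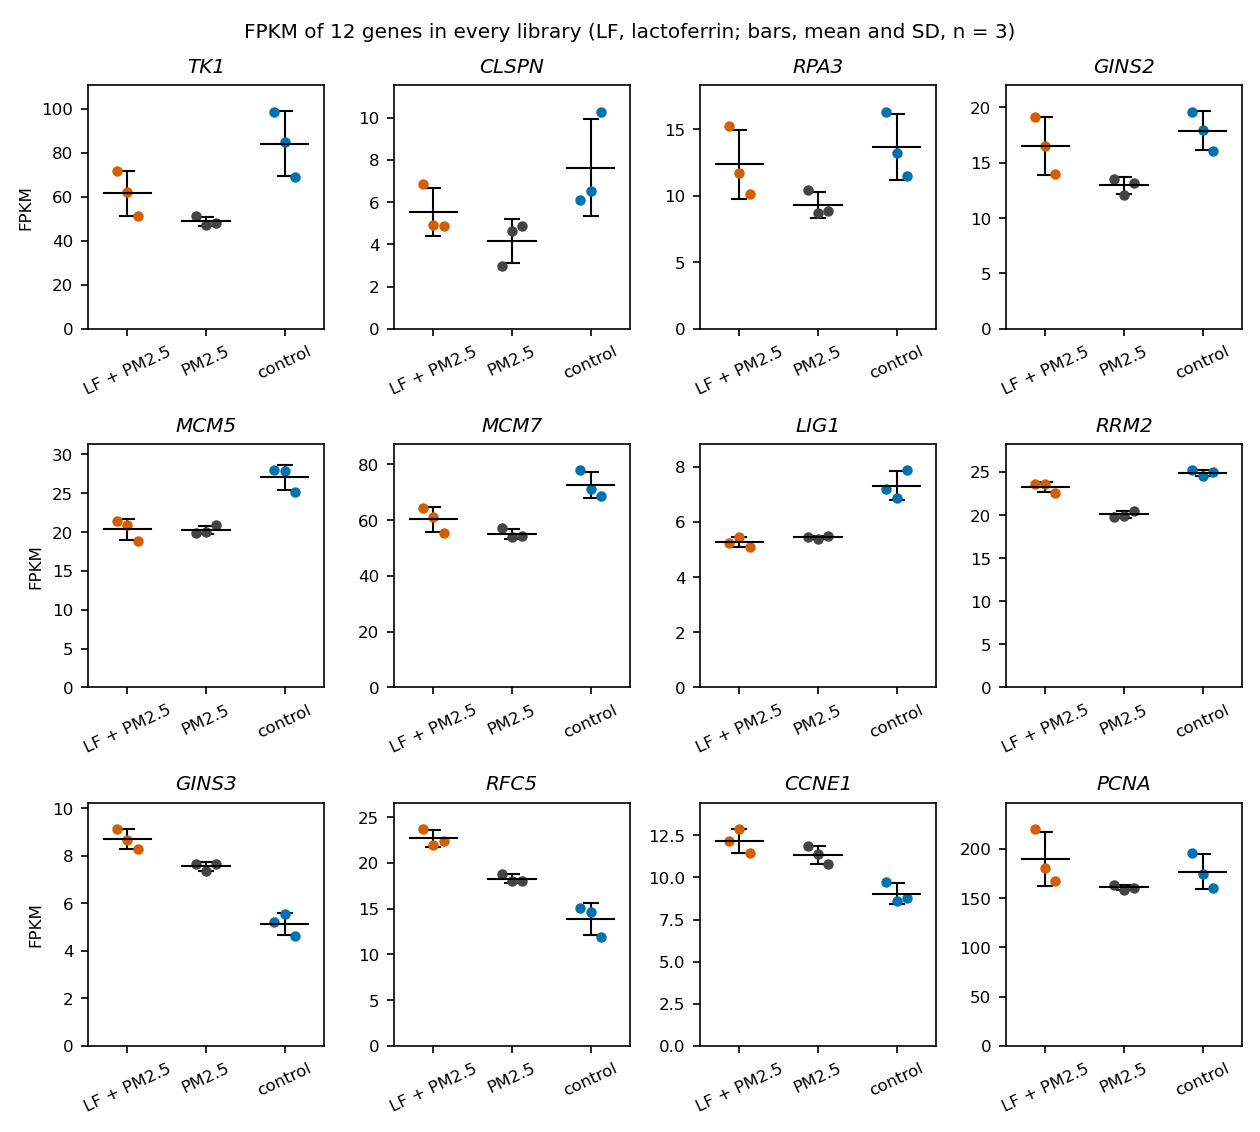
FPKM (linear axis from 0) of the 11 genes called with PM2.5 and of PCNA in every library, with group mean and SD (n = 3). The PM2.5 points lie below the control points for the 8 genes from TK1 to RRM2 and above them for GINS3, RFC5 and CCNE1, while PCNA overlaps.

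LIG1, the ligase that seals lagging-strand nicks, had 5.46, 5.36 and 5.48 FPKM with PM2.5, against 7.19, 6.87 and 7.88 FPKM in control. No libraries overlapped, and LIG1 fell by 0.44 on the log2 scale (adjusted p = 0.00463). Its partner FEN1, the flap nuclease, had 29.1, 29.9 and 30.4 FPKM with PM2.5 and 27.99, 27.6 and 28.4 FPKM in control, a difference of 0.04 ± 0.07 that did not pass the test.

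The deoxynucleotide supply genes all had negative log2 fold changes with PM2.5, and 2 of 4 passed the test. TK1, the cytosolic thymidine kinase of the salvage pathway, had 51.3, 47.2 and 48.02 FPKM with PM2.5, against 98.6, 84.8 and 68.9 FPKM in control. The PM2.5 libraries lay within a narrow band below all controls, whereas the controls spread widely, and TK1 fell by 0.81 ± 0.15 (SE; adjusted p = 0.00329). RRM2, the cell-cycle-regulated subunit of ribonucleotide reductase, had 19.8, 19.9 and 20.5 FPKM with PM2.5, against 25.2, 24.6 and 24.97 FPKM in control (-0.35 ± 0.07, adjusted p = 0.0045). TYMS, thymidylate synthase, lay below control in every PM2.5 library but missed the threshold (-0.31 ± 0.12, adjusted p = 0.0705), and RRM1, the large reductase subunit, overlapped (-0.17 ± 0.11).

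Chromatin and histone supply genes gave no call among 4 with PM2.5. SLBP, which binds the stem-loop of histone mRNA, had 81.1, 82.2 and 82.7 FPKM with PM2.5 and 89.1, 78.9 and 80.9 FPKM in control, with overlap (-0.06 ± 0.09). UHRF1, which directs DNA methylation to newly copied strands, had 31.2, 33.3 and 32.4 FPKM with PM2.5 and 34.3, 36.9 and 38.5 FPKM in control. Every PM2.5 library was below control, but the difference missed the threshold (-0.22 ± 0.08, adjusted p = 0.0698). The chromatin assembly factor subunits CHAF1A and CHAF1B had log2 fold changes of 0.04 and 0.07.

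Of the 4 G1/S regulators, CCNE1, the cyclin that activates CDK2 at S phase entry, rose with PM2.5. It had 11.9, 11.4 and 10.8 FPKM with PM2.5, against 9.74, 8.59 and 8.78 FPKM in control, with every PM2.5 library higher (0.27 ± 0.09, adjusted p = 0.0388). The call was lost without control replicate 1, 2 or 3, PM2.5 replicate 1 or 2, or lactoferrin plus PM2.5 replicate 2, with adjusted p between 0.0507 and 0.133. CCNE2, the related cyclin, differed by -0.23 ± 0.11 and did not pass the test. The activator E2F1 had a log2 fold change of 0.11 ± 0.09. E2F2, another activator, was expressed at under 1.1 FPKM, with 0.57, 0.714 and 0.645 FPKM with PM2.5 and 0.897, 1.03 and 0.903 FPKM in control, and just missed the threshold (-0.37 ± 0.13, adjusted p = 0.0531).

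CLSPN encodes claspin, which links stalled forks to the CHK1 kinase, and it had the most negative log2 fold change of the 48 with PM2.5. Its levels were 2.99, 4.63 and 4.89 FPKM with PM2.5, against 6.09, 6.52 and 10.3 FPKM in control, with control replicate 3 far above the other controls. CLSPN fell by 0.83 ± 0.24 (SE; adjusted p = 0.0247), and by 0.60 without control replicate 3, where it missed the threshold (adjusted p = 0.0636). It also missed it without PM2.5 replicate 1 (adjusted p = 0.0876). BRCA1, which protects and repairs forks, was likewise high in control replicate 3 (2.11, 3.14 and 3.41 FPKM with PM2.5, 3.28, 4.00 and 6.24 FPKM in control) and did not pass the test (-0.58 ± 0.24, adjusted p = 0.0875).

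Levels of the longest members were lower in the PM2.5 libraries than in control. Against the control mean, the 16 longest of the 48 genes (5118 to 16609 bases of exon) had a median log2 level of -0.25, -0.22 and -0.22 in the PM2.5 libraries, against -0.08, -0.04 and 0.12 in control. The 16 shortest (1471 to 3157 bases) had 0.02, 0.04 and 0.00 with PM2.5, against 0.05, -0.02 and 0.01 in control. With lactoferrin plus PM2.5 the longest had -0.08, -0.25 and -0.22, with replicate 1 inside the control range, and the shortest 0.25, 0.09 and 0.01. The longest include MCM5, LIG1, CLSPN and RRM2, already called lower with PM2.5. No median for long genes among all tested genes is given here. With a length trend removed from each library, 3 of the 48 genes were called higher and 13 lower with PM2.5. That fit called 2954 of 14440 tested genes higher and 2597 lower, where the main fit called 2704 and 2373. All 11 genes named as called above kept their direction and call.

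Genes outside the 48 that act in the same processes were taken from 6 further lists, and the counts refer to the same fit. Of 30 tested genes of other replication machinery, 2 rose and 8 fell with PM2.5 (median -0.16). ORC5 (0.48) and POLE3 (0.32) rose, while ATAD5, which unloads PCNA, had 0.326, 0.543 and 0.433 FPKM with PM2.5, against 1.41, 1.75 and 2.47 FPKM in control (-1.36 ± 0.19, adjusted p = 0.00071). RFC1, the large subunit of the clamp loader that RFC5 belongs to, fell by 1.22 (adjusted p = 0.00357), with 5.95, 8.76 and 9.23 FPKM with PM2.5, against 15.4, 16.8 and 23.7 FPKM in control. Of 25 other fork checkpoint and repair genes, 3 rose and 10 fell (median -0.20), with HUS1 (0.55) and RAD1 (0.41) of the checkpoint clamp rising and BRIP1 (-1.15) and ETAA1 (-1.28) falling. Of 10 other replicating-chromatin genes, 1 rose (SUV39H1, 0.37) and 4 fell, led by EZH2 (-0.69) and NASP (-0.76).

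Nucleotide synthesis outside the 48 had more genes higher than lower, with 9 of 22 genes higher and 3 lower with PM2.5 (median 0.14). MTHFD2, of mitochondrial one-carbon metabolism, had 52.9, 46.1 and 47.4 FPKM with PM2.5, against 29.7, 28.4 and 27.2 FPKM in control (0.72 ± 0.10, adjusted p = 0.000754). PPAT, the first enzyme of purine synthesis, rose by 0.45. DUT, which makes dUMP, fell, with a log2 fold change of -0.54 ± 0.13.

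Among 35 other G1/S switch genes, 7 rose and 12 fell with PM2.5. CDKN1A, the CDK inhibitor p21, had 89.6, 77.2 and 81.5 FPKM with PM2.5, against 35.3, 31.6 and 24.1 FPKM in control, a log2 rise of 1.40 ± 0.13 (adjusted p = 5.3e-05). CCND1, cyclin D1, had 20.3, 23.6 and 25.03 FPKM with PM2.5, against 5.27, 6.18 and 5.77 FPKM in control (1.86 ± 0.09, adjusted p = 2.9e-06). CCNA2, cyclin A2 of S and G2 phase, had 19.3, 18.7 and 18.4 FPKM with PM2.5, against 30.8, 29.6 and 29.9 FPKM in control (-0.71 ± 0.09, adjusted p = 0.000354), and CDKN2C, an inhibitor of CDK4 and CDK6, fell too (-1.07 ± 0.13). CDK2 (-0.06 ± 0.08), MYC (0.07 ± 0.08), RB1 (-0.30 ± 0.10, adjusted p = 0.0535) and E2F7 (0.14 ± 0.09) did not pass the test.

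**Figure D3:**
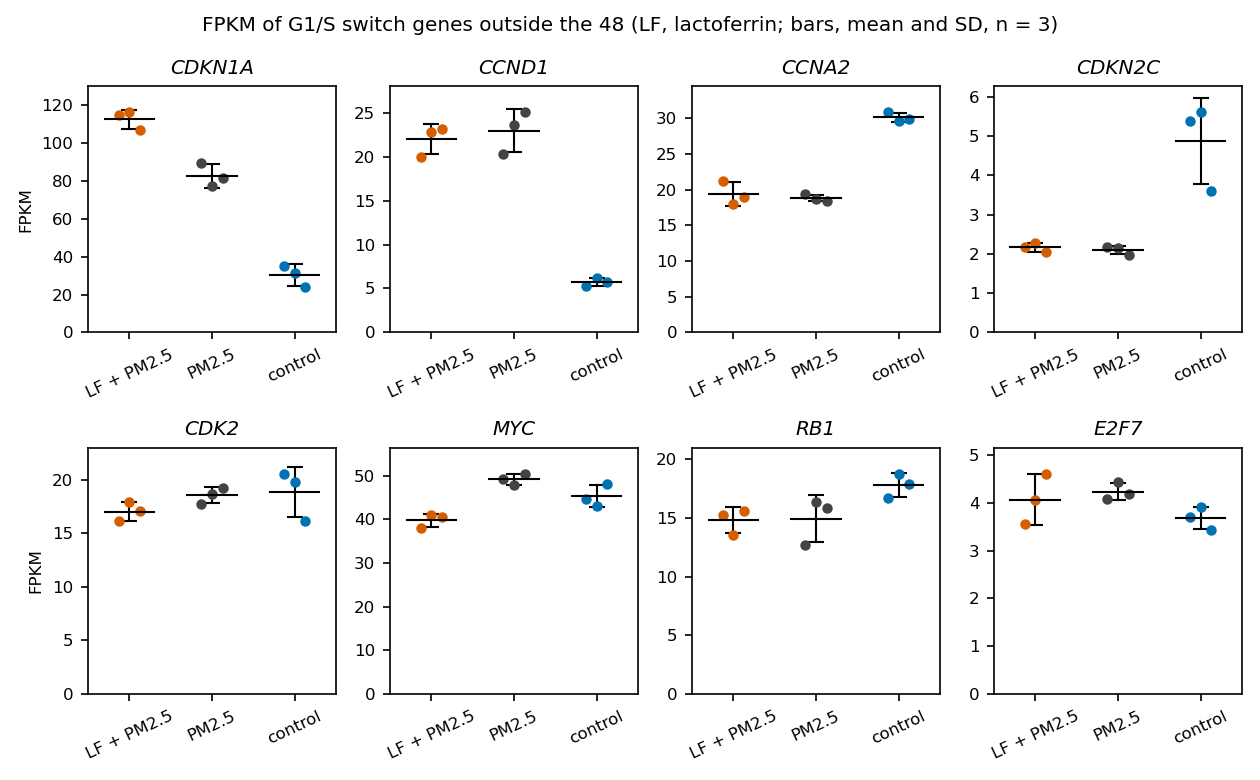
FPKM (linear axis from 0) of 8 G1/S switch genes outside the set in every library, with group mean and SD (n = 3). CDKN1A and CCND1 lie above control in all libraries of both exposed groups and CCNA2 below; MYC overlaps between PM2.5 and control.

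Most G2 and mitosis genes fell with PM2.5. Of 23 tested, 0 rose and 19 fell, where 16.4% of all tested genes fell. All 23 log2 fold changes were negative, with a median of -0.72, against -0.01 for the 48 replication genes. MKI67, the proliferation marker, had 6.10, 10.7 and 9.36 FPKM with PM2.5, against 23.9, 27.98 and 44.5 FPKM in control (-1.85 ± 0.27, adjusted p = 0.000982). TOP2A had 11.8, 18.9 and 18.8 FPKM with PM2.5, against 40.6, 48.4 and 72.9 FPKM in control (-1.71 ± 0.27), and log2 fold changes were -2.52 for HMMR and -1.27 for KIF20A. CCNB1 did not pass the test (-0.32 ± 0.11, adjusted p = 0.0557). Whether the lists differ was not tested, and both were chosen with earlier results of these data known.

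**Figure D4:**
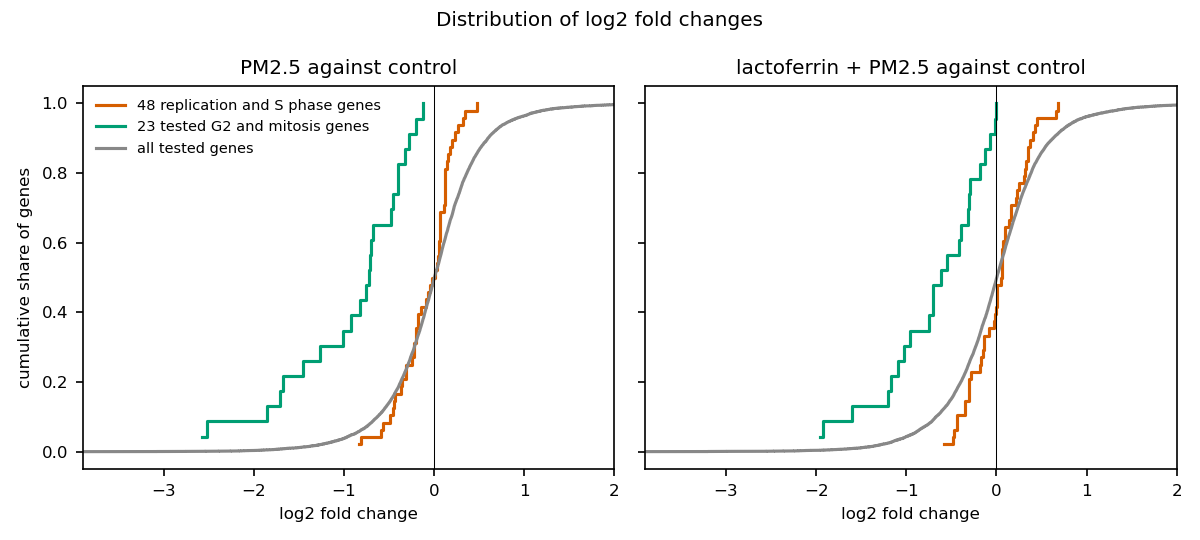
Cumulative share of genes (vertical axis) against log2 fold change (horizontal axis) for the 48 replication and S phase genes, 23 G2 and mitosis genes and all 14454 tested genes, for PM2.5 and for lactoferrin plus PM2.5, each against control. The replication curve crosses near 0 in both panels and is steeper than that of all genes, while the G2 and mitosis curve lies to its left.

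Lactoferrin pretreatment was compared with PM2.5 alone to ask whether it altered these genes; the PM2.5 exposure was 18 h in the pretreated cells and 24 h in the others, so lactoferrin and exposure time cannot be told apart. None of the 48 genes passed the test, with a smallest adjusted p of 0.306, where 0.0484% of all tested genes were called, 0.0208% higher and 0.0277% lower. At an unadjusted p under 0.05 there were 9 of the 48, against 1762 of the 14454 tested genes. By limma-voom on rebuilt reads 0 of the 48 were called, where 5 of 14440 genes were called higher and 11 lower. Log2 fold changes were positive for 37 of the 48 and negative for 11, with a median of 0.13, where 51% of all tested genes were positive and their median was 0.00. In FPKM, all pretreated libraries lay above all PM2.5 libraries for 14 genes and below for 0, against 11.3% and 9.79% of all tested genes (21.1% together). The 6 genes with the smallest p were RFC5, RRM2, GINS2, GINS4, PRIM2 and FEN1.

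RFC5 had 23.8, 21.97 and 22.4 FPKM with lactoferrin plus PM2.5, against 18.8, 18.04 and 18.02 FPKM with PM2.5, with no overlap (0.31 ± 0.09, adjusted p = 0.306). RRM2 had 23.6, 23.6 and 22.6 FPKM with lactoferrin plus PM2.5, against 19.8, 19.9 and 20.5 FPKM with PM2.5, also with no overlap (0.22 ± 0.07, adjusted p = 0.348). GINS2 had 19.2, 16.5 and 13.9 FPKM with lactoferrin plus PM2.5, against 13.5, 12.1 and 13.2 FPKM with PM2.5; the lowest pretreated library stood just above the highest PM2.5 library (0.34 ± 0.13, adjusted p = 0.381). GINS4, PRIM2 and FEN1 followed with smaller differences. GINS4 had 6.05, 6.33 and 6.39 FPKM with lactoferrin plus PM2.5, against 5.35, 5.62 and 5.56 FPKM with PM2.5 (0.18 ± 0.07). PRIM2 had 13.4, 13.01 and 12.7 FPKM with lactoferrin plus PM2.5, against 11.4, 11.6 and 10.8 FPKM with PM2.5 (0.21 ± 0.08). FEN1 had 34.7, 33.5 and 32.9 FPKM with lactoferrin plus PM2.5, against 29.1, 29.9 and 30.4 FPKM with PM2.5 (0.18 ± 0.07). TK1 differed by 0.33 ± 0.15 and CLSPN by 0.39 ± 0.24, MCM5 by 0.01 ± 0.08 and LIG1 by -0.04 ± 0.09.

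The positive median moved with lactoferrin plus PM2.5 replicate 1. The median log2 level of the 48 genes against the control mean was 0.14 in lactoferrin plus PM2.5 replicate 1, 0.01 in replicate 2 and -0.04 in replicate 3, against -0.04, 0.02 and -0.01 in the PM2.5 libraries. Without that replicate 1 the median log2 fold change was 0.07, and with the length trend removed it was 0.06, where 37 of 48 were still positive. In the same library the 16 shortest genes had a median of 0.25 and the 16 longest -0.08. With libraries weighted by their quality, 10 of the 48 were called higher and 0 lower, where that fit called 977 of all tested genes higher and 853 lower. None of the 6 further lists had a called gene in this comparison; CDKN1A had 115, 116 and 107 FPKM with lactoferrin plus PM2.5, against 89.6, 77.2 and 81.5 FPKM with PM2.5 (0.45 ± 0.13, adjusted p = 0.304).

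Against control, lactoferrin plus PM2.5 gave 12 higher and 7 lower replication genes, and 29 did not pass the test. Called genes made up 39.6% of the 48, against a background of 38.5%, of which 20.4% were higher and 18.2% lower. All pretreated libraries lay above control for 17 genes and below for 8, against 26.8% and 20.7% of all tested genes (47.5% together). Log2 fold changes were above 0 for 28 of the 48, against 50.3% of all tested genes, and their median was 0.05, with a range of -0.58 to 0.68. This comparison and that of PM2.5 with control share their control libraries. In both, GINS3, RFC5 and CCNE1 were higher and MCM5, MCM7, LIG1 and TK1 lower, and 25 genes were called in neither.

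**Figure D5:**
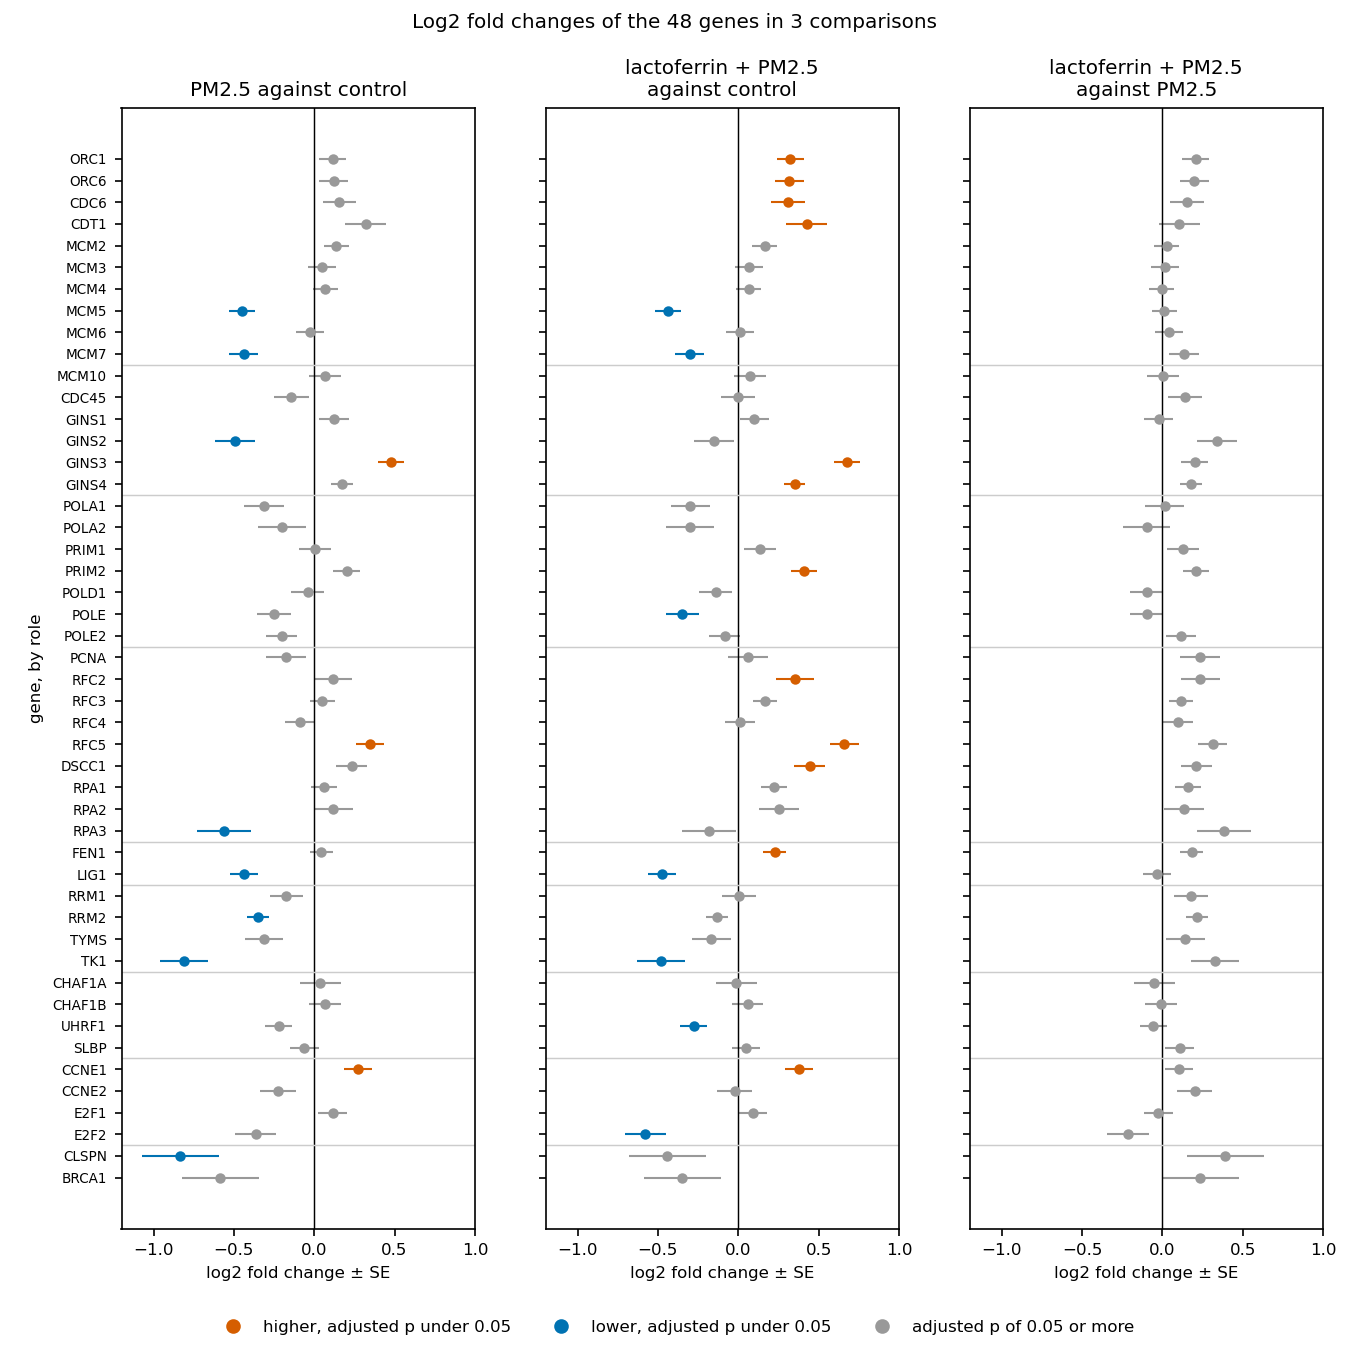
Log2 fold change ± SE (horizontal axis) of the 48 genes by role (rows) for PM2.5 against control, lactoferrin plus PM2.5 against control, and lactoferrin plus PM2.5 against PM2.5; colours mark genes with an adjusted p under 0.05. The first panel has 3 higher and 8 lower genes, the middle panel 12 higher and 7 lower, and the last panel none.

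The licensing factors ORC1 (0.32 ± 0.08, adjusted p = 0.0138), ORC6 (0.32 ± 0.09, adjusted p = 0.0195), CDC6 (0.31 ± 0.10, adjusted p = 0.0414) and CDT1 (0.43 ± 0.13, adjusted p = 0.0278) were higher with lactoferrin plus PM2.5 than in control. ORC1, for example, had 11.6, 11.9 and 12.7 FPKM with lactoferrin plus PM2.5, against 9.23, 9.13 and 9.48 FPKM in control. In the ring itself, MCM5 had 21.4, 20.9 and 18.8 FPKM with lactoferrin plus PM2.5, against 27.99, 27.9 and 25.2 FPKM in control (-0.44 ± 0.08, adjusted p = 0.0024), and MCM7 was lower as well (-0.30 ± 0.09, adjusted p = 0.0269). MCM2, MCM3, MCM4 and MCM6 ran from 0.01 to 0.16 and did not pass the test. MCM5 stayed called under all 22 alternatives, but the others depended on the libraries kept. CDC6 was lost without any single library other than control replicate 3 or lactoferrin plus PM2.5 replicate 3 (adjusted p of 0.0524 to 0.142). CDT1 was lost without control replicate 3 or lactoferrin plus PM2.5 replicate 1 or 2 (0.0659 to 0.106), and ORC6 without control replicate 2 or 3 or lactoferrin plus PM2.5 replicate 2 (0.0515 to 0.0581). ORC1 was lost without control replicate 2 (0.0545). MCM7 was lost without control replicate 1 or 2 or lactoferrin plus PM2.5 replicate 2 or 3 (0.0529 to 0.0832) and with upper-quartile scaling (0.0924).

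At the fork, GINS3 had the largest positive value, with 9.14, 8.66 and 8.29 FPKM with lactoferrin plus PM2.5, against 5.22, 5.54 and 4.62 FPKM in control (0.68 ± 0.08, adjusted p = 0.000259). GINS4 rose too, with 6.05, 6.33 and 6.39 FPKM with lactoferrin plus PM2.5, against 4.78, 4.88 and 4.38 FPKM in control (0.35 ± 0.07, adjusted p = 0.00321), whereas GINS2 overlapped control (-0.15 ± 0.13). PRIM2 (0.41 ± 0.08), RFC2 (0.35 ± 0.12, adjusted p = 0.0424), RFC5 (0.66 ± 0.09), FEN1 (0.23 ± 0.07, adjusted p = 0.0338) and DSCC1 (0.45 ± 0.10), a subunit of an alternative clamp loader, were also higher. POLE was lower, with 4.37, 5.72 and 5.81 FPKM with lactoferrin plus PM2.5, against 6.32, 6.69 and 6.98 FPKM in control (-0.35 ± 0.10, adjusted p = 0.0265). LIG1 was lower with no overlap (-0.47 ± 0.09, adjusted p = 0.00264). GINS3, GINS4, PRIM2, RFC5, DSCC1 and LIG1 stayed called under all 22 alternatives. RFC2 was lost without any single library other than lactoferrin plus PM2.5 replicate 3 (adjusted p of 0.0601 to 0.126), and its log2 fold change was 0.21 without lactoferrin plus PM2.5 replicate 1. FEN1 was lost without any single library other than control replicate 3 or lactoferrin plus PM2.5 replicate 3 (0.0532 to 0.117), and POLE without control replicate 2 or 3 (0.0650 and 0.0682).

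TK1 had 71.4, 62.2 and 51.1 FPKM with lactoferrin plus PM2.5, against 98.6, 84.8 and 68.9 FPKM in control; the groups overlapped, and the difference was -0.48 ± 0.15 (adjusted p = 0.0319). That call was lost without control replicate 1 or 2 or lactoferrin plus PM2.5 replicate 2 or 3 (adjusted p of 0.0779 to 0.101) and with upper-quartile scaling (0.0726). RRM2 (-0.13 ± 0.07), RPA3 (-0.18 ± 0.17) and CLSPN (-0.44 ± 0.24) did not pass the test. E2F2 was lower, with 0.477, 0.576 and 0.396 FPKM with lactoferrin plus PM2.5, against 0.897, 1.03 and 0.903 FPKM in control (-0.58 ± 0.13, adjusted p = 0.0069), as was UHRF1 (-0.28 ± 0.08, adjusted p = 0.0281), while CCNE1 was higher (0.38 ± 0.09, adjusted p = 0.00859). UHRF1 was lost without control replicate 2 or 3 or lactoferrin plus PM2.5 replicate 2 (0.0560 to 0.0728 as adjusted p). That 4 genes were called against control with PM2.5 and not with lactoferrin plus PM2.5 (GINS2, RPA3, RRM2 and CLSPN) does not show a difference between those treatments, for none of the 4 passed the test between them. With the length trend removed, ORC1, FEN1 and POLE were no longer called (adjusted p = 0.0898, 0.163 and 0.704).

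Counts against control moved with single libraries. Without control replicate 2, 7 genes were higher and 3 lower with lactoferrin plus PM2.5, and without lactoferrin plus PM2.5 replicate 2, 7 were higher and 4 lower. Calls over all tested genes fell as well, from 2944 higher and 2624 lower with all libraries. They were 2328 and 1893 without control replicate 2, and 2215 and 2020 without lactoferrin plus PM2.5 replicate 2. Whether the counts of replication genes moved more than those over all tested genes was not tested. Leaving out lactoferrin plus PM2.5 replicate 1 turned the median to -0.01. Without PM2.5 replicate 1, PM2.5 against control had 1 higher gene, GINS3. Calls over all tested genes were also fewer in that fit, with 1965 higher and 1731 lower, against 2704 and 2373 with all libraries.

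Of the promoter windows of genes called with PM2.5, E2F-type words were found in 2 of 3 higher, 4 of 6 lower and 24 of 32 uncalled. For the pretreated cells set against control the counts were 6 of 10 higher, 5 of 6 lower and 19 of 25 uncalled. Among the printed genes, the words thus occur in MCM7, GINS2 and LIG1, which fell with PM2.5, and in PCNA, POLA1 and MCM6, which did not pass the test.

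The other lists against control with lactoferrin plus PM2.5 had 0 of 23 G2 and mitosis genes higher and 14 lower (median -0.61), 3 of 30 machinery genes higher and 5 lower, and 9 of 22 nucleotide synthesis genes higher and 1 lower. Fork checkpoint and repair had 3 of 25 higher and 8 lower, G1/S switch genes 8 of 35 higher and 13 lower, and replicating-chromatin genes 1 of 10 higher and 2 lower. CDKN1A had 115, 116 and 107 FPKM with lactoferrin plus PM2.5, against 35.3, 31.6 and 24.1 FPKM in control (1.86 ± 0.13, adjusted p = 8.0e-06).

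Exons of 22 of the 48 genes overlap those of another annotated gene. The overlap was 46.6% of the length in TYMS, 37.1% in CCNE2, 35.1% in POLA2, and 23.6% in each of MCM2 and GINS4. It was 21.6% in PRIM1, 20.2% in RRM2, 10.9% in GINS3, 10.6% in RFC5 and at most 8.94% in the others. No label or header used here states how the counting treated strand, so reads of such partners cannot be told apart in these genes.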

How the data were processed

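Total RNA of 9 HK-2 libraries was sequenced. The authors deposited FPKM per Ensembl gene for each library; HISAT2 2.1.0, featureCounts 1.6.0, Trimmomatic 0.38, DESeq2 1.22.1 and build GRCh38 are named in the submitters' processing notes, and the annotation release and strand setting are not stated there. Exon lengths came from GENCODE release 29 (58611 of 58884 identifiers). Symbols came from a reference list of gene names, or from release 29 where that list had none (58876 identifiers). Low values were nearly whole multiples of 1 read: 86.0% to 87.2% of values of up to 200 reads lay within 0.05 of a whole number.

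FPKM were divided by trimmed-mean (TMM) factors of 0.943 to 1.04, computed on rebuilt reads, and log2(FPKM + 0.5) was tested with limma 3.58.1 in R 4.3.3 (trend and robust, 9 libraries, 3 group means). A fold change on this scale understates low genes. Genes needed at least 0.5 FPKM in 3 libraries (14454 genes). Tests were two-sided; p-values were Benjamini-Hochberg adjusted over all tested genes and called under 0.05. The procedure was also run on simulated libraries with known changes. How many of those changes it recovered is not given here, so that run lends no weight to the calls.

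Members and lists were chosen with earlier results of these data known. Values in every library are given for the most changed called genes, the 6 smallest p between the exposed groups, the 3 highest in level, and the largest change in each role. In each further list, the 2 called genes with the smallest p in each direction are named, with set cell cycle regulators. Alternatives were 22: other scalings, pseudocounts and filters, limma-voom, 6 libraries only, the replicate block, library weights, a threshold of 0.01, libraries left out, and, chosen after seeing the data, a length trend removed by a spline. PRC1 and CHTF8 were below the filter. Some named genes are not reported here.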

Additional observations from a re-analysis of the deposited data

How the results depend on the processing

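Of the 22 alternatives, none reversed the direction of a called gene. For PM2.5 against control, the replicate block gave 5 higher and 10 lower of the 48 genes, library weights 8 and 14, a threshold of 0.01 on the adjusted p 1 and 5, and the length trend removed 3 and 13. Over all tested genes, the block called 2909 higher and 2775 lower, and the threshold of 0.01 left 1590 and 1340. With the length trend removed the all-gene calls were 2954 and 2597. Between the exposed groups, library weights gave 10 higher, the block 0, and the median log2 fold change was 0.0604 with the length trend removed. For lactoferrin plus PM2.5 against control, fitting only the 6 libraries compared gave 7 higher and 3 lower, a threshold of 0.01 gave 6 and 3, no filter on low values gave 3 lower, and the length trend removed gave a median of -0.0317; the block gave 11 and 8. Over all tested genes, the main fit of that comparison called 2944 higher and 2624 lower. Fitting only the 6 libraries gave 2328 and 2120, and the threshold of 0.01 gave 1807 and 1555. No filter gave 2463 and 2249, and the block 3175 and 2855. The counts for lactoferrin plus PM2.5 against control are not read as particular to the 48 genes. With no filter, p-values were adjusted over 34366 genes, where the main fit had 14454. For PM2.5 against control that fit called 2119 of all tested genes higher and 1877 lower. The cause of these moves was not tested, except that the stricter threshold has fewer calls by construction.

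Leaving out each library in turn gave 1 to 3 higher and 6 to 10 lower genes for PM2.5 against control (medians -0.0379 to 0.00308), 0 between the exposed groups (medians 0.0650 to 0.180, the lowest without lactoferrin plus PM2.5 replicate 1), and 7 to 14 higher and 3 to 7 lower for lactoferrin plus PM2.5 against control (medians -0.00744 to 0.0812). Over all tested genes, these fits called 1965 to 3070 higher and 1681 to 2792 lower for PM2.5 against control. For lactoferrin plus PM2.5 against control they called 2215 to 2834 higher and 1893 to 2604 lower. GINS3, LIG1, MCM5, MCM7, RRM2 and TK1 were called with PM2.5 under all 22 alternatives; CCNE1 was lost in 10, RPA3 in 6, CLSPN in 4, and GINS2 and RFC5 in 2 each. For lactoferrin plus PM2.5 against control, FEN1 and RFC2 were lost in 12, CDC6 in 11, MCM7 and TK1 in 8, CDT1, POLE and UHRF1 in 7, ORC6 in 5 and ORC1 in 3, which is 80 lost calls, against 24 for PM2.5 against control. Deviations of same-numbered libraries from their group means correlated at -0.07 to 0.18, and those of differently numbered libraries at -0.18 to 0.14. These ranges overlap, so pairing by replicate number was not settled, and the block result is given only here. All-gene calls with library weights were 3987 higher and 3741 lower for PM2.5 against control, where the main counts were 2704 and 2373. With 3 libraries a group, small changes can be missed; at 34 to 93 rebuilt reads, E2F2 is limited by counting error.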
